A study of Mus musculus with 6 samples.

Results

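Aquaporins are membrane channels that let water, and in some members glycerol, ammonia or hydrogen peroxide, pass along their gradients. In the exocrine pancreas, acinar cells release digestive enzymes in a small volume of fluid and the ducts add a bicarbonate-rich fluid to it, so that water has to follow salt across both epithelia and across the wall of the capillaries. Aqp8 and Aqp12 are the acinar members, Aqp1 and Aqp5 have been located to ducts, and Aqp1 is also the water channel of capillary endothelium and of red blood cells. The genes described here are 6, Aqp1, Aqp3, Aqp4, Aqp5, Aqp8 and Aqp12, with every probe set that the array annotation assigns to one of them alone: 11 probe sets of 34958 with a single gene symbol, and 6 genes of 18194. They were selected by name, with their values in the comparison of Jarid2-deficient and control pancreases already known, and the differences between the groups are therefore given as a description, without a test.

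RNA came from whole e15.5 pancreases of C57BL/6 mice, from 3 Jarid2Δpanc samples and 3 Jarid2WT samples, and was hybridized to 1 Affymetrix array per sample. Jarid2Δpanc embryos carried Pdx1-Cre, which is active in pancreatic progenitors, together with a floxed Jarid2 gene (Pdx1-Cre;Jarid2 flox/flox). Recombination by this Cre is restricted to the epithelium and is mosaic according to the study, so that vessels, blood and mesenchyme of a Jarid2Δpanc pancreas keep the gene. Jarid2WT samples are labelled wild-type, and which Cre or floxed alleles they carried is not given in the sources used here. A description label that names islets in glucose goes against all other labels and was not followed. The titles name a single embryo for each sample.

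Several features set single samples apart. Signals are on the linear scale of the arrays, each scaled to a trimmed mean of 150, and values under a floor of 16, which were 26.5% to 29.0% on each array, were set to 16 before log2 was taken. Xist, the RNA of the inactive X chromosome, had signals of 4197 to 4905 in the 3 Jarid2Δpanc samples. In Jarid2WT replicates 1, 2 and 3 it had 24, 12 and 4390. The Y chromosome gene Eif2s3y, by its brighter probe set, had 7, 5 and 13 in Jarid2Δpanc replicates. In Jarid2WT replicates 1, 2 and 3 it had 560, 506 and 9. By these RNAs the Jarid2Δpanc samples and Jarid2WT replicate 3 read as female, and Jarid2WT replicates 1 and 2 as male. Only 1 control was thus like the Jarid2Δpanc samples, and sex is in part confounded with genotype in every comparison of the groups. The summed signal of 10 skeletal muscle markers was 259 to 320 in Jarid2Δpanc samples and 260, 254 and 11296 in Jarid2WT replicates 1, 2 and 3. Liver markers summed to 2717 in Jarid2Δpanc replicate 3 and to 2858 in Jarid2WT replicate 2, against 587 to 945 in the other 4 samples. The 3′ to 5′ ratio of the β-actin control probes was 1.58 to 1.79 in Jarid2Δpanc and 1.63 to 1.80 in Jarid2WT samples. The 3 probe sets of Jarid2 itself had log2 differences of 0.01 to 0.13, and whether any of them reads the deleted part is not given. By qRT-PCR of the exon between the loxP sites, the study reported lower Jarid2 in e15.5 Jarid2Δpanc pancreases than in controls.

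Of the 11 probe sets, 4 had all 3 Jarid2Δpanc signals below all 3 Jarid2WT signals and none had them above. They read Aqp8, Aqp12 and, with a pair of probe sets, Aqp4. Over all probe sets with a single gene symbol, 4.61% lay below in this way and 6.12% above. Counted by gene, each read by its probe set of highest mean, 3 of 6 aquaporins lay below, beside 5.64% of all 18194 genes below and 5.71% above. Because the genes were taken with these values known, the counts are read no further. The shares by gene also stand beside each count for a gene list given further on. In whole-tissue RNA, fewer cells of a type and less RNA per cell cannot be told apart.

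Aqp8, a channel of the acinar cell that also passes ammonia and hydrogen peroxide, had signals of 233, 198 and 192 in Jarid2Δpanc replicates 1, 2 and 3, against 340, 454 and 353 in Jarid2WT replicates 1, 2 and 3. The groups did not overlap, and Jarid2WT replicate 2 stood above the other two controls. The means were 208 ± 22.1 in Jarid2Δpanc and 382 ± 62.4 in Jarid2WT pancreases (SD, n = 3 each), a log2 difference of -0.87 (standard error 0.16). Hepatocytes use Aqp8 as well, and the liver markers were high in the control with the highest Aqp8 signal and in the Jarid2Δpanc sample with the lowest. Without Jarid2WT replicate 2 the log2 difference was -0.74. The part of liver cells in the Aqp8 signal was not tested.

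Aqp12, an intracellular aquaporin known from acinar cells, had signals of 45, 37 and 12 in Jarid2Δpanc replicates, against 122, 118 and 103 in Jarid2WT replicates. The lowest control was 2.29-fold above the highest Jarid2Δpanc sample. Jarid2Δpanc replicate 3 lay under the floor of 16, so that the log2 difference of -1.93 (standard error 0.46) takes that array at 16. The means of the signals as deposited were 31.3 ± 17.2 in Jarid2Δpanc and 114 ± 10.0 in Jarid2WT pancreases (SD, n = 3 each). Without Jarid2Δpanc replicate 3 the log2 difference was -1.48, and with a floor of 64, above all 3 Jarid2Δpanc signals, it was -0.83. The order of the groups is thus clear on these arrays, whereas the size of the difference is set by how dim signals are treated.

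**Figure D1:**
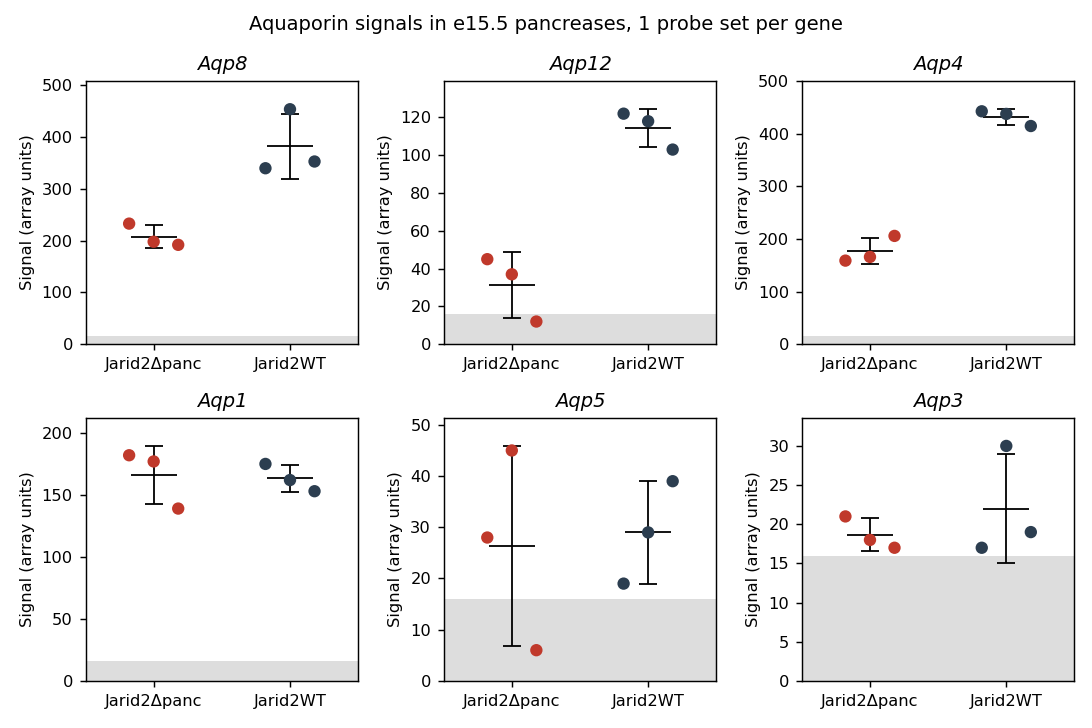
Signals (vertical axes, linear array units starting at 0) of the probe set with the highest mean of each aquaporin, with red points for the 3 Jarid2Δpanc and dark points for the 3 Jarid2WT samples in the order of replicates 1 to 3, lines for the mean and bars for the SD. Grey marks signals under 16. For Aqp8, Aqp12 and Aqp4 all Jarid2Δpanc points lie below all Jarid2WT points, and for Aqp1, Aqp5 and Aqp3 the groups overlap.

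Other genes of acinar cells had lower signals in the same samples. Of 16 acinar markers, 9 lay below all controls and none above, with a median log2 difference of -0.40 and a range of -2.12 to 0.01, beside a median of 0.00 over all genes. Several of these markers were named by the study from the same arrays, so that the count is not independent of the comparison. None passed an adjusted p under 0.05 from limma over all genes, as was the case for every gene (0 of 18194 lower and 0 higher). At unadjusted p under 0.05, limma gave 807 genes lower, 4.44% of all, and 795 higher, 4.37%, and among the acinar markers 9 lower and 0 higher. The mean log2 signal of the list, relative to the mean of the controls, was -0.66, -0.72 and -0.78 in Jarid2Δpanc replicates 1, 2 and 3. Aqp8 had -0.70, -0.94 and -0.98 in the same samples, and Aqp12 had -1.34, -1.62 and -2.83. Among the controls, Jarid2WT replicate 2 was the highest for the acinar list (0.24) and for Aqp8 (0.26), whereas for Aqp12 it was Jarid2WT replicate 1 (0.10, against 0.05 in replicate 2). The markers with the highest means were Ctrb1, a chymotrypsinogen, with -0.07 (standard error 0.12) and Pnliprp1, a lipase-related gene, with -0.14 (standard error 0.11). Rbpjl, the acinar subunit of the transcription factor PTF1, is named after its values were seen and had 322, 396 and 385 in Jarid2Δpanc replicates, against 498, 515 and 455 in Jarid2WT replicates (-0.42, standard error 0.11, adjusted p = 0.382 from limma).

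The regions upstream of the acinar pair and of Aqp1 are shown because the acinar pair lay below all controls and Aqp1 did not. A promoter entry was found for 5 of the 6 genes in the RefSeq-based table of the build GRCm38.p6. Each line holds the 250 bases before the annotated start, at chr7:123462044-123462293 (plus strand) for Aqp8, chr1:93006084-93006333 (plus strand) for Aqp12 and chr6:55336049-55336298 (plus strand) for Aqp1, and capitals mark matches to the motifs named after them.
Aqp8: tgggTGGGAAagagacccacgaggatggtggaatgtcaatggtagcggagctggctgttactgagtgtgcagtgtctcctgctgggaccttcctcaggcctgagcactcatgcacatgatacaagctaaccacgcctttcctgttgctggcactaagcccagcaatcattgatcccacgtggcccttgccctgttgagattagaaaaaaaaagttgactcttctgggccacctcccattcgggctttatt
Aqp12: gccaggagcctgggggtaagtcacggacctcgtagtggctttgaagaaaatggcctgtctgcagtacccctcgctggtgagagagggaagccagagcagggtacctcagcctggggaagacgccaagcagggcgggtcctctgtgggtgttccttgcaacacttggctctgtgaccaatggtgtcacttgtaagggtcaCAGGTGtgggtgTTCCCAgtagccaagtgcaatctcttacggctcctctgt
Aqp1: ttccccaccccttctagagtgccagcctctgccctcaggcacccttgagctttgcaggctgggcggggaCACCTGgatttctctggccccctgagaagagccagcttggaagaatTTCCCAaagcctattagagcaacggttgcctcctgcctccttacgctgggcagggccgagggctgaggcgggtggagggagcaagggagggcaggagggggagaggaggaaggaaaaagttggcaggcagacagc
The motifs searched on both strands were the E-boxes CACCTG and CAGCTG, the RBPJ core TGGGAA, the NR5A2 site AAGGTCA and the GATA site AGATAA. They name sites of factors with a known part in acinar cells (PTF1, which joins a bHLH dimer to RBPJ or RBPJL, and NR5A2) or in blood cells (GATA). Aqp12 held CACCTG on the minus strand, beginning 51 bases before the start, and TGGGAA on the minus strand, beginning 39 bases before it, with 6 bases between them. Aqp1 held the same pair of motifs, at 181 and 135 bases before the start. Aqp8 held TGGGAA alone, at 246 bases before the start. Of 32851 such windows, 17.2% held CACCTG, 13.0% CAGCTG, 21.6% TGGGAA, 4.08% AAGGTCA and 9.99% AGATAA, and 3.91% held both CACCTG and TGGGAA. This last share takes no account of the strands or the spacing of the motifs. Both motifs stood before Aqp12 and before Aqp1, but with unlike strands and spacing, and a part of either site was not tested. Of the other entries, Aqp3 held CACCTG alone and Aqp5 held no match.

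Aqp4, the water channel of astrocyte end-feet that is also found in skeletal muscle and in parietal cells of the stomach, was lower in every Jarid2Δpanc pancreas than in any control with 2 of its 3 probe sets. The first had signals of 159, 166 and 206 in Jarid2Δpanc replicates, against 443, 438 and 415 in Jarid2WT replicates. The means were 177 ± 25.4 in Jarid2Δpanc and 432 ± 14.9 in Jarid2WT pancreases (SD, n = 3 each), a log2 difference of -1.30 (standard error 0.12). The lowest control was 2.01-fold above the highest Jarid2Δpanc sample. The second probe set had 45, 28 and 39 in Jarid2Δpanc replicates, against 69, 85 and 79 in Jarid2WT replicates (log2 difference -1.08, standard error 0.22). The third had 14, 32 and 18 in Jarid2Δpanc replicates, against 49, 29 and 30 in Jarid2WT replicates (log2 difference -0.74, standard error 0.39). Only in this last probe set did the groups overlap, and 1 of its signals lay under the floor.

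Markers of skeletal muscle, of neural crest and glia and of gut epithelium were set beside Aqp4, and none of them marks parietal cells. Skeletal muscle markers were high in Jarid2WT replicate 3 alone, in which Aqp4 had the lowest signal of the controls, and without that sample the log2 difference of Aqp4 was -1.32. Of 6 measured markers of neural crest and glia, 2 lay below all controls and none above (median 0.18), beside 5.64% and 5.71% of all genes. The summed signal of the 6 was 708 to 811 in Jarid2Δpanc and 571 to 839 in Jarid2WT samples. The 2 that lay below, Gfap and S100b, are named after their values were seen. The other 4 overlapped with the controls, with log2 differences of 0.17 to 0.39. The intermediate filament gene Gfap had 27, 24 and 20 in Jarid2Δpanc replicates, against 35, 38 and 38 in Jarid2WT replicates (-0.65, standard error 0.13, adjusted p = 0.292 from limma). S100b had 56, 62 and 76 in Jarid2Δpanc replicates, against 90, 84 and 97 in Jarid2WT replicates (-0.49, standard error 0.14, adjusted p = 0.416 from limma). Ednrb and Fabp7, those of the list with the highest means, had 0.39 (standard error 0.22) and 0.19 (standard error 0.25). Of 10 markers of gut epithelium none lay outside the range of the other group (median 0.00), with a summed signal of 363 to 417 in Jarid2Δpanc and 350 to 386 in Jarid2WT samples. Fabp2 and Apoa4 of this list were under 16 on every array. The part of muscle, glial or gut cells in the result for Aqp4 was not tested.

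Aqp4 is held at the membrane by the dystrophin complex through syntrophins. Of 7 measured genes of this complex, 1 lay below all controls and 1 above, beside 5.64% and 5.71% of all genes. The median log2 difference of the 7 was -0.02, with no gene past the threshold in limma. The syntrophin Sntb1 had 502, 448 and 487 in Jarid2Δpanc replicates, against 608, 618 and 645 in Jarid2WT replicates (log2 difference -0.38, standard error 0.06, adjusted p = 0.236 from limma). The related Sntb2 had 74, 60 and 61 in Jarid2Δpanc replicates, against 47, 44 and 46 in Jarid2WT replicates (0.50, standard error 0.10, adjusted p = 0.292 from limma). Both syntrophins are named after their values were seen, as the genes of the complex whose groups did not overlap. Dystroglycan (Dag1) and utrophin (Utrn), those with the highest means, had -0.19 (standard error 0.13) and -0.02 (standard error 0.09).

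**Figure D2:**
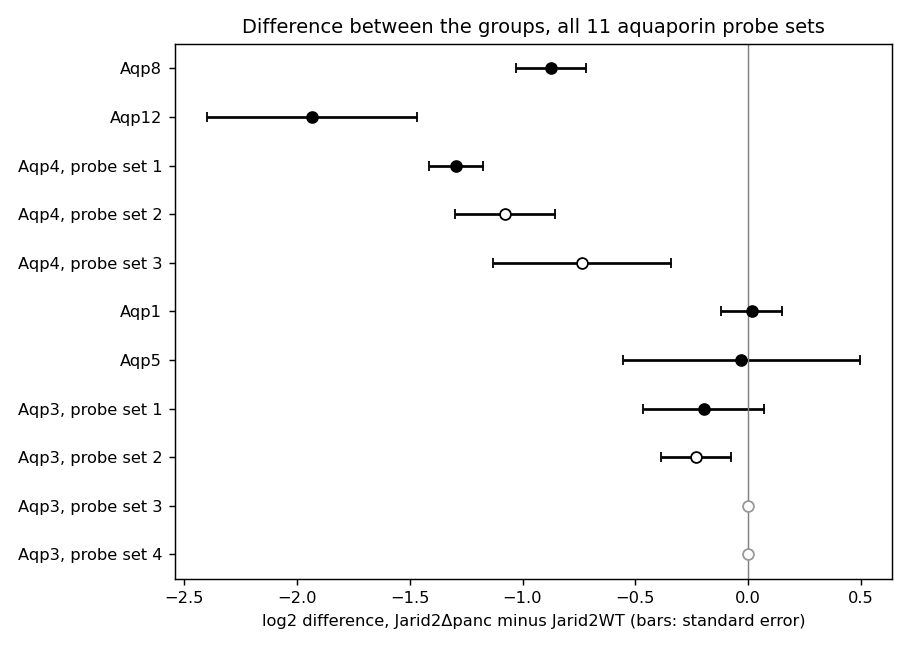
Log2 difference, Jarid2Δpanc minus Jarid2WT (horizontal axis), of all 11 probe sets, with bars for the standard error, filled points for the probe set that reads its gene elsewhere and grey points for those under 16 on all arrays. Aqp8, Aqp12 and the 3 probe sets of Aqp4 lie between -1.93 and -0.74, and Aqp1, Aqp5 and Aqp3 between -0.23 and 0.02.

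Aqp1, the channel of capillaries, red blood cells and ducts, had near-equal signals in both groups. They were 182, 177 and 139 in Jarid2Δpanc replicates, against 175, 162 and 153 in Jarid2WT replicates. The means were 166 ± 23.5 in Jarid2Δpanc and 163 ± 11.1 in Jarid2WT pancreases (SD, n = 3 each), a log2 difference of 0.02 (standard error 0.14). The highest and the lowest sample were both Jarid2Δpanc, so that the spread within this group covered all controls. Leaving out single samples gave -0.06 to 0.14.

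The endothelial list beside it was near the control level or slightly above it. None of 15 endothelial markers lay below all controls and 1 (Egfl7) lay above. The median log2 difference was 0.14, and 2 of the 15 had a negative one. Relative to the mean of the controls, the endothelial list had 0.15, 0.22 and -0.01 in Jarid2Δpanc replicates 1, 2 and 3. In Jarid2WT replicates 1, 2 and 3 it had -0.03, -0.03 and 0.06 (mean log2 signal). Its summed signals were 3053 to 3605 in Jarid2Δpanc and 3018 to 3272 in Jarid2WT samples. Egfl7, a secreted endothelial factor, had 465, 515 and 421 in Jarid2Δpanc replicates, against 371, 416 and 411 in Jarid2WT replicates (0.22, standard error 0.10). Cd34 had 0.14 (standard error 0.21). Of 10 erythroid markers 1 (the dim Hbb-bh1) lay below and none above, and their summed signal was 4498 to 5338 in Jarid2Δpanc and 3018 to 8064 in Jarid2WT samples. The mean log2 signal of the list, relative to the mean of the controls, was 0.31, -0.19 and 0.05 in Jarid2Δpanc replicates 1, 2 and 3, and -0.27, 0.22 and 0.05 in Jarid2WT replicates 1, 2 and 3. The embryonic globins Hbb-y and Hba-x, those with the highest means, had -0.01 (standard error 0.50) and -0.10 (standard error 0.37). The part of erythroid cells in the Aqp1 signal was not tested. Mesothelial cells also hold Aqp1, and of 6 of their markers 1 (Upk1b) lay above all controls and none below (median 0.19). Upk3b and Lrrn4, those with the highest means, had 0.41 (standard error 0.24) and -0.05 (standard error 0.21).

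Aqp5, which sits in the apical membrane of salivary glands, of alveolar cells and of pancreatic ducts, was dim. It had 28, 45 and 6 in Jarid2Δpanc replicates, against 19, 29 and 39 in Jarid2WT replicates (log2 difference -0.03, standard error 0.53). Signals within Jarid2Δpanc samples spread 7.50-fold, and those of controls 2.05-fold, and the difference was far smaller than its standard error. Of 10 measured duct and trunk markers, 2 (Pkhd1 and Sctr) lay below all controls and 1 (Krt7) above, beside 5.64% and 5.71% of all genes. The median log2 difference of the 10 was -0.09. Krt7, a duct keratin, had 604, 604 and 648 in Jarid2Δpanc replicates, against 575, 510 and 497 in Jarid2WT replicates (0.23, standard error 0.07, adjusted p = 0.454 from limma). Bicc1, the other marker with a high mean, had 0.07 (standard error 0.05).

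Aqp3, an aquaglyceroporin of epidermis and kidney collecting duct, was at or near the floor with all 4 probe sets. The probe set with the highest mean had 21, 18 and 17 in Jarid2Δpanc replicates, against 17, 30 and 19 in Jarid2WT replicates (log2 difference -0.20, standard error 0.27). A second one had 4, 4 and 3 in Jarid2Δpanc replicates, against 11, 18 and 23 in Jarid2WT replicates, and 4 of these 6 values lay under 16. Without a floor its groups would not overlap, but signals so low have no reliable order and give no fold change. The remaining 2 probe sets were under 16 on all arrays, with signals of 1 to 4 in Jarid2Δpanc and 1 to 15 in Jarid2WT samples.

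The aquaporin genes outside the group of 6 gave low signals throughout. They were Mip of the lens, Aqp2 and Aqp6 of the kidney, Aqp7 of fat, Aqp9 of hepatocytes and Aqp11 of the endoplasmic reticulum. No signal of their 14 probe sets was above 69. With 1 probe set per gene none lay outside the range of the other group, and none passed limma (lowest adjusted p = 0.668). Aqp11, the relative of Aqp12, had 58, 52 and 66 in Jarid2Δpanc replicates, against 54, 46 and 48 in Jarid2WT replicates (log2 difference 0.25, standard error 0.12). Its other probe sets had 0.41 (standard error 0.35) and -0.73 (standard error 0.40). Aqp9 had 25, 15 and 29 in Jarid2Δpanc replicates and 14, 15 and 14, all under the floor, in Jarid2WT replicates. The highest of these came from Jarid2Δpanc replicate 3. Liver markers were high in that sample and in Jarid2WT replicate 2, which had 15. The part of liver cells in the Aqp9 signal was not tested.

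Genes that move salt with water were mostly near the control level. Of 22 measured channels, exchangers and receptors of exocrine fluid secretion, 3 lay below all controls and 1 above, beside 5.64% and 5.71% of all genes. The median log2 difference of the 22 was 0.05, and none passed limma in either direction. Cckar, the cholecystokinin receptor of acinar cells, had 2216, 1942 and 1959 in Jarid2Δpanc replicates, against 3321, 3487 and 2381 in Jarid2WT replicates (-0.57, standard error 0.18, adjusted p = 0.462 from limma). The sodium pump subunit Atp1b1 had 0.06 (standard error 0.13). The other 3 whose groups did not overlap, named after their values were seen, were the secretin receptor Sctr, the chloride loader Slc12a2 and the calcium-activated chloride channel Ano1. Sctr had 18 in each Jarid2Δpanc sample, against 42, 24 and 41 in Jarid2WT replicates (-0.94, standard error 0.26, adjusted p = 0.413 from limma). Slc12a2 had 714, 729 and 738 in Jarid2Δpanc replicates, against 777, 810 and 844 in Jarid2WT replicates (-0.16, standard error 0.04). Ano1 had 476, 535 and 532 in Jarid2Δpanc replicates, against 346, 422 and 426 in Jarid2WT replicates (0.37, standard error 0.11, adjusted p = 0.424 from limma). The duct chloride channel Cftr, also named after its values were seen, was at or near the floor, with 5 to 10 in Jarid2Δpanc and 5 to 22 in Jarid2WT samples.

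Glycerol metabolism and the response to osmotic stress were measured as neighbours of the channels. Of 9 glycerol genes, 1 (the monoglyceride lipase Mgll) lay below all controls and none above (median log2 difference -0.03), and Gpam and Plin2, those with the highest means, had -0.03 (standard error 0.11) and 0.03 (standard error 0.06). Of 10 osmotic response genes, 1 (the kinase gene Stk39) lay below and 2 above (median 0.06), beside 5.64% and 5.71% of all genes. The kinase genes Wnk1 and Sgk1 had 0.01 (standard error 0.08) and -0.02 (standard error 0.13). The 2 above were Nfat5, the transcription factor of this response, and its taurine transporter target Slc6a6, named after their values were seen. Slc6a6 had 426, 430 and 360 in Jarid2Δpanc replicates, against 309, 293 and 323 in Jarid2WT replicates (0.39, standard error 0.09, adjusted p = 0.353 from limma). Nfat5 had 0.24 (standard error 0.11, adjusted p = 0.610 from limma).

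**Figure D3:**
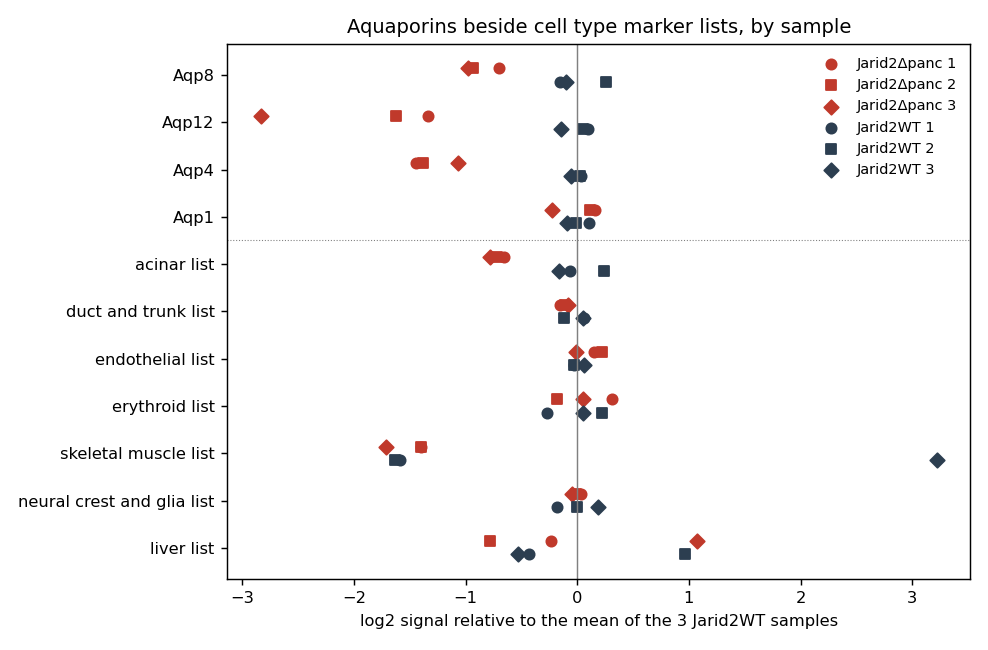
Log2 signal of 4 aquaporins and mean log2 signal of 7 marker lists by sample, with the Jarid2WT mean set to 0 (horizontal axis), with red symbols for Jarid2Δpanc and dark symbols for Jarid2WT samples, and circles, squares and diamonds for replicates 1, 2 and 3. The acinar list has -0.78 to -0.66 in the Jarid2Δpanc samples, Aqp8 has -0.98 to -0.70 and Aqp4 has -1.44 to -1.07, and the muscle list is high in Jarid2WT replicate 3 alone.

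The profiles most like those of Aqp8 and Aqp4 over the 6 arrays were sought among 9874 other genes with a mean log2 signal of at least 6, by the root mean square difference of the centred log2 signals. Nearest to Aqp8 were the trypsinogen gene Prss3 (0.10 log2 units), the secreted ribonuclease angiogenin Ang (0.11) and somatostatin Sst (0.11). Ang, for example, had 1436, 1518 and 1442 in Jarid2Δpanc replicates, against 2495, 3081 and 2405 in Jarid2WT replicates. Nearest to Aqp4 were amylin Iapp (0.11), the trypsin inhibitor Spink1 (0.14) and insulin Ins2 (0.15). Iapp had 2709, 2710 and 3247 in Jarid2Δpanc replicates, against 5972, 6648 and 5953 in Jarid2WT replicates. These neighbours include acinar and endocrine genes for both channels. The likeness rests mainly on the step between the groups and is a description of 6 arrays. Aqp12, with a mean log2 signal of 5.87, was below the limit for this comparison.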

How the data were processed

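RNA of whole e15.5 pancreases was amplified through 2 cycles of cDNA synthesis from 50 ng and hybridized to Affymetrix Mouse Genome 430 2.0 arrays. The deposited values are linear intensities of 45101 probe sets, made with MAS5 according to the submitters' notes (version not given) and scaled to a mean of 150 once 2% of probe sets at either end is trimmed, which was checked on the files. The study's methods name RMA and limma, and RMA values were not used here. No detection calls, dates or batches were used. Values were floored at 16 and log2 was taken. Of the probe sets, 932 with several symbols and 9211 without a name were left out. Each gene was read by its probe set of highest mean. All genes were fitted with limma 3.58.1 in R 4.3.3 (4 residual degrees of freedom, Benjamini-Hochberg adjustment, threshold 0.05), after a test on simulated data. Standard errors are those of the group difference before moderation. The p-values set the difference between the groups against the spread within them, moderated over all genes. The prior had 0.608 degrees of freedom, so that moderation added little to the 4 residual ones. With 3 samples per group, the number of arrays limits the precision.

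The aquaporins and all gene lists were chosen with earlier results of these data known. Named genes were the 6 aquaporins, every other aquaporin, from each list the genes past the threshold (there were none) or the 2 with the highest mean, and for each aquaporin ranging over at least 1 log2 unit with a mean of at least 6 the 3 genes of most similar profile. For the skeletal muscle, liver and gut epithelium lists, the 2 genes with the highest mean are not printed. Jarid2, Xist and Eif2s3y were named as checks of the samples. Other genes named outside this rule were named after their values were seen. Most are marked so. The rest are given as lying below or above all controls, or as under 16 on every array. Promoter windows were searched by exact match. Alternatives were each sample left out, the replicate number as a block, other normalization, floors of 1, 32 and 64, another variance model, filters on dim genes, other ways to join probe sets and controls matched in Xist.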

Additional observations from a re-analysis of the deposited data

How the results depend on the processing

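Aqp8, Aqp12 and Aqp4 kept their direction in every alternative that gave a value for them. Leaving out each sample in turn gave log2 differences of -0.96 to -0.74 for Aqp8, -2.23 to -1.48 for Aqp12 and -1.41 to -1.22 for Aqp4. For Aqp1, Aqp5 and Aqp3 the same gave -0.06 to 0.14, -0.39 to 0.35 and -0.36 to 0.05, so that the sign of these differences depends on single samples. With a floor of 64, Aqp12 had -0.83, and with the mean of all probe sets Aqp4 had -1.04. Aqp12, Aqp5 and Aqp3 have no value with the filter on dim genes, and the probe sets below all controls were then 2. Without single samples 4 to 5 probe sets lay below all controls and 0 to 1 above.

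Over all genes, limma gave 0 to 8 lower and 0 to 4 higher past the adjusted threshold of 0.05 without single samples. The count reached 8 without Jarid2WT replicate 2 and 4 without Jarid2Δpanc replicate 3. Quantile normalization gave 2 lower and 1 higher, the filter on dim genes 3 lower, and the fit over all probe sets 1 higher. Against the control matched in Xist, Jarid2WT replicate 3 alone, 252 were lower and 14 higher, with that lone sample assumed to vary like the others. It is the sample with muscle transcripts, and there Aqp8, Aqp12 and Aqp4 had -0.77, -1.79 and -1.24. With the replicate block 0 genes were lower and 0 higher. The numbers do not pair the samples, since deviations of same-numbered samples correlated at -0.05, -0.05 and -0.03. Of 476 counts for gene lists under these alternatives, 87 moved, by over 1.5 times or to or from 0. Signals near the floor limit Aqp3, Aqp5 and Aqp12.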
